A study of Mus musculus with 157 samples.

Results

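The genes described are 42 mouse genes of DNA replication and S phase, given as a list of symbols and found by matching the Ensembl gene IDs of both deposited tables to those symbols. All 42 were found among the 50686 genes of each table, and all 42 passed the filter on low counts in every comparison. They load the replicative helicase at origins (11 genes), switch it on (6), copy DNA (8 subunits of the polymerases and primase), clamp the polymerases to DNA (6), bind single-stranded DNA (3), join Okazaki fragments (2), supply deoxynucleotides (4) and place histones behind the fork (2).

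RNA was sequenced in bulk from mouse thymocytes, thymus and thymic tumours, in 23 groups of libraries. Every RERT2, LCK or CD4 library was labelled with a Cdc20 genotype, either D/AAA or +/D, so the D allele is carried by both the mutant and the control mice. Cdc20 is an activator of the anaphase-promoting complex, and Mad2, the spindle checkpoint protein, does not bind the AAA form. RERT2 is known as a tamoxifen-inducible Cre expressed from the Polr2a locus, LCK and CD4 name T cell drivers, and MYCChr6 marks human MYC inserted on mouse chromosome 6.

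The earlier sequencing run held 81 libraries, all RERT2. They were D/AAA early tumours sorted as double positive (DP) cells (n = 5), D/AAA early tumours whose labels name no sort (n = 7), and D/AAA beside +/D thymocytes sorted at the double negative stages DN1 (n = 9 beside 6), DN2 (1 beside 8), DN3 (5 beside 8) and DN4 (6 beside 8), then DP (11 beside 7). The later run held 76 libraries of unsorted tissue. Its tumours were LCK D/AAA MYCChr6 (n = 14), LCK +/D MYCChr6 (n = 4), CD4 D/AAA MYCChr6 (n = 2), RERT2 D/AAA MYCChr6 (n = 3), RERT2 D/AAA p53(+/D) (n = 10), p53(-/-) (n = 1) and RERT2 D/AAA (n = 22). Its non-tumoral RERT2 thymus was D/AAA MYCChr6 (n = 3), +/D MYCChr6 (n = 2), D/AAA (n = 9) and +/D (n = 6). The labels give no age and no treatment, and nothing in them ties the libraries of a group to separate mice. The p-values therefore rest on the spread from library to library, which may be technical.

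Total counts ran from 2701382 to 11595463 in the earlier run, apart from 1 D/AAA DN1 library with 21199, and from 1708619 to 8009572 in the later run. In the earlier run every +/D library came before every D/AAA library in title number, and the early tumours came after every D/AAA DN4 and DP library. The libraries above 182156 did not exceed 5373182 counts. In the later run every thymus library came before every tumour. RERT2 D/AAA tumours came before every p53(+/D) and LCK D/AAA MYCChr6 tumour, and LCK +/D before LCK D/AAA tumours. In comparisons of these groups, title order cannot be told apart from genotype, driver or tissue. The row CT010467.1 took a mean of 30.1% to 40.4% of counts in the tumour groups of the later run and 44.3% to 48.7% in its thymus groups, against at most 1.0% in any group of the earlier run. Levels are CPM, counts scaled to a fixed library total, after TMM, a factor per library that evens out such composition, and values after ± are SD for levels and SE for log2 fold changes. The labelled cell types were checked against marker genes. In sorted +/D DN1 cells the 7 NKT and NK cell markers summed to 3882 to 5677 CPM and the 6 B cell markers to 921 to 3316 CPM, against 249.7 to 567 CPM and 40.9 to 184 CPM in +/D DN2 cells. In 5 of the 7 early tumours with no sort named, the NKT and NK markers summed to 3236 to 8266 CPM and the 7 DP markers (Cd4, Cd8a, Rag1 and others) to 17.8 to 199 CPM, against a DP marker sum of 8567 to 13149.8 CPM in +/D DP cells.

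As background, replication in each cell cycle starts with licensing, in which the origin recognition complex, Cdc6 and Cdt1 load the Mcm2 to Mcm7 helicase ring onto DNA. At S phase entry Cdc45 and the GINS complex join the ring to form the active helicase, primase and polymerase alpha lay down primers, and polymerases delta and epsilon extend them on the Pcna clamp, which the replication factor C complex loads. Many of these genes are transcribed in late G1 and S phase under E2F factors. In the thymus, cells divide fast around DN2 to DN4 and at the start of DP, while most DP cells are small and out of cycle.

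Promoters of the genes are shown because the genes moved together across stages. RefSeq (GRCm38.p6) windows of 250 bases before to 50 after the start were held for 35 of the 42 genes, in 41 windows. An E2F-type motif (TTTNGCGC or TTTCCCGC, on either strand, overlaps allowed) was in 13 of the 41 windows (31.7%), against 786 of 32851 windows of all genes (2.39%). The genes with a match were Orc1, Cdc6, Cdt1, Mcm3, Mcm5, Mcm6, Mcm7, Gins3, Pola1, Pold1, Pole2, Rfc3 and Lig1. CCAAT was in 61.0% of the members' windows and 37.4% of all windows, CACGTG in 17.1% and 7.15%, and TTTGAA in 12.2% and 17.9%. A match describes these letters and is not a binding site. The windows of 4 helicase subunits, the clamp loader subunit Rfc3 and, as one with no E2F-type match, Rrm2 are printed 5′ to 3′ on the gene's strand, with the E2F-type matches in capitals.
Mcm3, chr1:20820263-20820562, minus strand: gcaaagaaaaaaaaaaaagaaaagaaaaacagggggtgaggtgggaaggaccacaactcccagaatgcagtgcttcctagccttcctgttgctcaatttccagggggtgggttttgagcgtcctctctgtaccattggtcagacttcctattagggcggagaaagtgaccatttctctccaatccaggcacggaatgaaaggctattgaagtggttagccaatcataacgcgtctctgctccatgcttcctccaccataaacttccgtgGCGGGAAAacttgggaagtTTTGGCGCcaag
Mcm5, chr8:75109259-75109558, plus strand: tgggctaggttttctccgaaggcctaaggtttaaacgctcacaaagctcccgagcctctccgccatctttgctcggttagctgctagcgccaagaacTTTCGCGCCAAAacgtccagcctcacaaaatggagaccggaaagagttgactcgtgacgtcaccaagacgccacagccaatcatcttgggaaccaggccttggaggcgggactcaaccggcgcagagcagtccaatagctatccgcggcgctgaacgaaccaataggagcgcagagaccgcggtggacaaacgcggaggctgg
Mcm6, chr1:128359656-128359955, minus strand: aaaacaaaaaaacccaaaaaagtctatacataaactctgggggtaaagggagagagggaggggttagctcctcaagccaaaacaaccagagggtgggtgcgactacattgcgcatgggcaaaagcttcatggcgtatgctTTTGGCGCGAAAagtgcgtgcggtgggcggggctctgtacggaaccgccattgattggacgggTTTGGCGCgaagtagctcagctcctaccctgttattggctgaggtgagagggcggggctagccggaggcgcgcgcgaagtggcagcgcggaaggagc
Mcm7, chr5:138171834-138172133, minus strand: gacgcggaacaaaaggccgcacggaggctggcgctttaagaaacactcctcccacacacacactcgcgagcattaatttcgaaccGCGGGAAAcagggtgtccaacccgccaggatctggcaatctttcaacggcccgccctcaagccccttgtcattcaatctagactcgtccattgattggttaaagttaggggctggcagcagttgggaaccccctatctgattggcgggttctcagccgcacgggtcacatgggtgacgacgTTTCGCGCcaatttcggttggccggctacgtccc
Rfc3, chr5:151651159-151651458, minus strand: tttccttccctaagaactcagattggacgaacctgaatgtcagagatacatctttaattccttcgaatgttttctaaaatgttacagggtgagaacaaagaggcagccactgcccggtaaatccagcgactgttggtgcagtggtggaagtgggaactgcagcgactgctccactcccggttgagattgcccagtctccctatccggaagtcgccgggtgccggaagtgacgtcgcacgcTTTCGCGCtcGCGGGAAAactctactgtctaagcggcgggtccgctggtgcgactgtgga
Rrm2, chr12:24708004-24708303, plus strand: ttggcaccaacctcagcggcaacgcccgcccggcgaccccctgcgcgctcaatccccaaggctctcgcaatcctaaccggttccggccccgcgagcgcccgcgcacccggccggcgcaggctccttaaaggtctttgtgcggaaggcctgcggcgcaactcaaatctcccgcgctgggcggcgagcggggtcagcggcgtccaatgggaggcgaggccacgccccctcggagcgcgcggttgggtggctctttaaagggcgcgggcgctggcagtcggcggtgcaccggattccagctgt
The Mcm6 window held 3 E2F-type matches, which start at bases 141, 145 and 204 of the window, the first pair overlapping. The Mcm5 window held 2, at bases 98 and 102, also overlapping. The Rrm2 window held CCAAT once, at base 201, and neither E2F-type motif.

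The stage series of +/D cells asked how the genes vary along normal thymocyte development. Replication genes were low at DN1, rose at DN2, showed no called change at DN3, rose again at DN4 and fell at DP. The 42 genes together summed to 2598 ± 176 CPM at DN1 (SD, n = 6), 10557 ± 1636 at DN2 (n = 8), 9821 ± 1161 at DN3 (n = 8), 14666 ± 1185 at DN4 (n = 8) and 5059 ± 1004 at DP (n = 7). This sum is weighted towards the most abundant genes, mostly the Mcm genes. In bulk libraries, fewer cells in S phase and less RNA of these genes per cell cannot be told apart. DN4 had the highest mean for 39 of the 42 genes, and the 3 others, Pola1, Prim2 and Rfc2, were highest at DN2. DN1 had the lowest mean for 38, and Orc2, Cdt1, Pold2 and Rfc2 were lowest at DP. The ratio of the DN4 to the DN1 mean ran from 1.84 for Rfc2 to 29.6 for Rrm2.

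**Figure D1:**
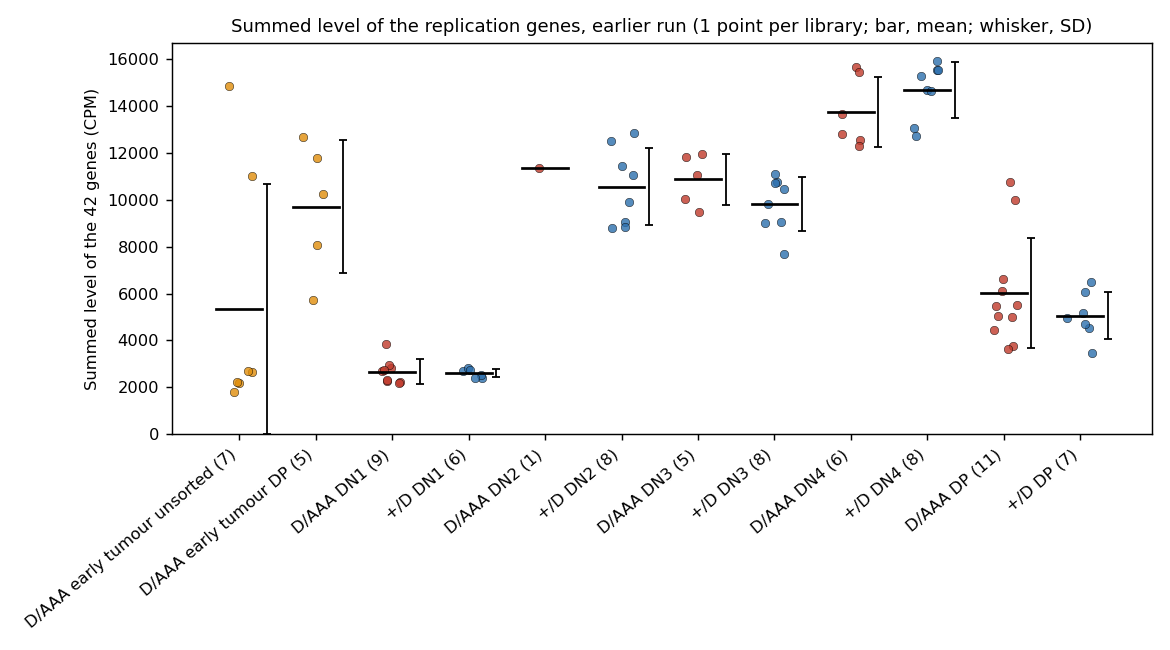
Summed CPM of the 42 replication genes in each library of the earlier run, with the mean as a bar and the SD as a whisker, early tumours in orange, D/AAA cells in red and +/D cells in blue. In +/D cells DN4 lies between 12723 and 15899 CPM, above every +/D DP library (3477 to 6497 CPM).

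Mcm6 (ENSMUSG00000026355, GRCm38 chromosome 1, 128331590 to 128359664, minus strand), a helicase subunit, shows the pattern. Its lowest, median and highest CPM were 129, 151 and 185 at DN1, 872, 1082 and 1283 at DN2 and 616, 815 and 1178 at DN3. They reached 1039, 1200.1 and 1363 CPM in DN4 cells, and were 144, 261 and 376 CPM in DP cells. DN2 libraries lay above DN1 and DP libraries below DN4 with no overlap, while DN3 overlapped both neighbours. Rrm2 (ENSMUSG00000020649, chromosome 12, 24708241 to 24714146, plus strand), the regulated subunit of ribonucleotide reductase, had 7.52, 27.2 and 39.8 CPM at DN1, 142, 302 and 410.2 at DN2 and 186, 322 and 371 at DN3 (lowest, median, highest). It had 581, 748 and 879.8 CPM in DN4 cells, against which DP cells had 223, 428 and 602 CPM. It was the one gene whose DP mean exceeded its DN2 mean, 1.47 times, while the other 41 ranged from 0.26 (Mcm6) to 0.86 (Rpa1) times.

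In DN2 against DN1 cells all 42 genes rose, where 48.5% of all genes tested were called in either direction and 24.6% were higher. Their median log2 fold change was 2.32, against 0.00 over all genes, and the ranges of 37 genes did not overlap. Ranges without overlap were not counted over all genes, here or in the later comparisons. The chromatin assembly subunit Chaf1a had the largest change, with 109.9, 170.1 and 229.5 CPM at DN2 (lowest, median, highest) against 1.67, 9.37 and 15.9 at DN1. Its log2 fold change was 4.26 ± 0.35 (adjusted p = 1.06e-12) in edgeR's quasi-likelihood test with Benjamini-Hochberg adjustment. Helicase activation genes had a median of 3.06, nucleotide supply genes 3.11, licensing genes 2.20, the clamp and its loader 1.69 and the single-strand binding RPA subunits 1.33. Cdc6 (ENSMUSG00000017499, chromosome 11, 98907801 to 98923940, plus strand), the licensing ATPase, changed by 4.0 ± 0.25 (adjusted p = 2.58e-16), Gins1 by 3.83 ± 0.33, the thymidylate synthase Tyms by 3.93 ± 0.25, the nick-sealing ligase Lig1 by 3.44 ± 0.20 and the polymerase alpha catalytic subunit Pola1 by 3.03 ± 0.32. Pcna (ENSMUSG00000027342, chromosome 2, 132249162 to 132253314, minus strand), the clamp itself, rose by 1.69 ± 0.16. All 7 NKT and NK, 6 of 6 B cell and 8 of 8 myeloid and dendritic markers were lower at DN2, and the part of this mixture at DN1 in the difference was not tested.

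Genes outside the members were given from 6 related lists. In DN2 against DN1 cells all 18 mitosis genes (Ccnb1 4.38 on the log2 scale), all 11 tested cyclin and E2F genes of the G1 to S step (E2f8 4.87) and all 9 genes of S phase chromatin and DNA methylation (Uhrf1 3.98) were higher. Of 18 other origin and fork factors 13 were higher (Ticrr 3.75) and 1 lower (Donson -1.06). Of the other polymerase subunits and processing genes 10 were higher (Dna2 3.69) and 1 lower (Pold4 -1.92). Of 8 nucleotide metabolism genes 6 were higher (Shmt1 3.14) and 2 lower, led by the dNTP hydrolase Samhd1 at -4.92.

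In DN3 against DN2 cells no replication gene was called, where 4.35% of all genes were. At an unadjusted p under 0.05 there were 2 of the 42 and 2151 of the 15278 genes tested, DESeq2 called 1 and limma voom 2, and the median was -0.08. Mcm6 averaged 836 ± 156.7 CPM at DN3 and 1061 ± 137 at DN2 (SD, n = 8 each), a log2 change of -0.35 ± 0.13 (adjusted p = 0.144). The clamp loader subunit Rfc2 changed by -0.39 ± 0.13 (adjusted p = 0.0701).

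In DN4 against DN3 cells 24 of the 42 genes rose and none fell, where 15% of all genes were called, 7.47% higher and 7.53% lower. The median was 0.54, against 0.01 over all genes. The count was 2 when all libraries of the run shared 1 fit, and 24 to 34 under the other settings tried. Rrm2 moved most, with 581, 748 and 879.8 CPM at DN4 (lowest, median, highest) against 186, 322 and 371 at DN3, ranges that did not overlap. Its log2 change was 1.25 ± 0.21 (adjusted p = 5.11e-05). Licensing genes were called in 9 of 11 cases, among them all of Mcm2 to Mcm7 (0.49 to 0.70), Cdc6 at 0.90 ± 0.19 (adjusted p = 0.000922), Cdt1 and Orc6. All 3 RPA subunits, both Okazaki fragment genes, Pcna at 0.74 ± 0.14 (adjusted p = 0.000232) and 3 clamp loader subunits (Rfc1, Rfc3, Rfc4) also rose. As for the rest, 2 of 6 helicase activation genes (Cdc45 0.78 and Gins4 0.49), 2 of 8 polymerase and primase genes (Prim1 0.66 and Pola2 0.53) and 2 of 4 nucleotide supply genes (Rrm1 and Rrm2) passed the threshold, and neither chromatin assembly gene did (Chaf1a 0.55 ± 0.27, Chaf1b 0.42 ± 0.18). The B cell marker sum was 1163 and 860 CPM in DN4 libraries 1 and 7, and without them 29 genes were called. The shares of all genes called in that refit and under the other settings are not given here. The moves from 24 are therefore not read as particular to replication genes. Of the other lists, 5 of the cyclin and E2F genes rose, led by the S phase cyclin Ccne1 at 1.41, and 1 of 18 mitosis genes did, the proliferation marker Mki67 at 0.84.

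In DP against DN4 cells all 42 genes fell, where 49.5% of all genes were called and 25% were lower. The median was -1.55, against 0.01 over all genes, and 39 genes had no overlap between the groups (not counted over all genes). The helicase subunit Mcm5 had 175, 310.1 and 415 CPM at DP (lowest, median, highest) against 1007, 1240.3 and 1340.3 at DN4, a change of -2.03 ± 0.15 (adjusted p = 2.67e-14). Mcm10, which helps to start the helicase, moved most at -2.36 ± 0.33 (adjusted p = 2.02e-07), with 27.7 ± 11.7 CPM at DP (SD, n = 7) and 144 ± 17.8 at DN4 (n = 8). Orc1, the origin recognition subunit, changed by -2.31 ± 0.48, Rfc4 by -1.99 ± 0.19, the polymerase delta subunit Pold2 by -1.95 ± 0.14 and the thymidine kinase Tk1 by -1.77 ± 0.20. Rrm2 changed by -0.77 ± 0.22 (adjusted p = 0.00383), and its ranges overlapped. Of the related lists, 5 of 18 mitosis genes (Cdk1 -1.04), 12 of 18 origin and fork factors (Tipin -1.81), 11 of the polymerase processing genes (Dscc1 -2.10) and 8 of 9 chromatin genes (Hells -2.43) were lower. Against the trend, the kinase Dck, which salvages deoxynucleosides, was higher at 1.11 and E2f2 at 1.48.

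**Figure D2:**
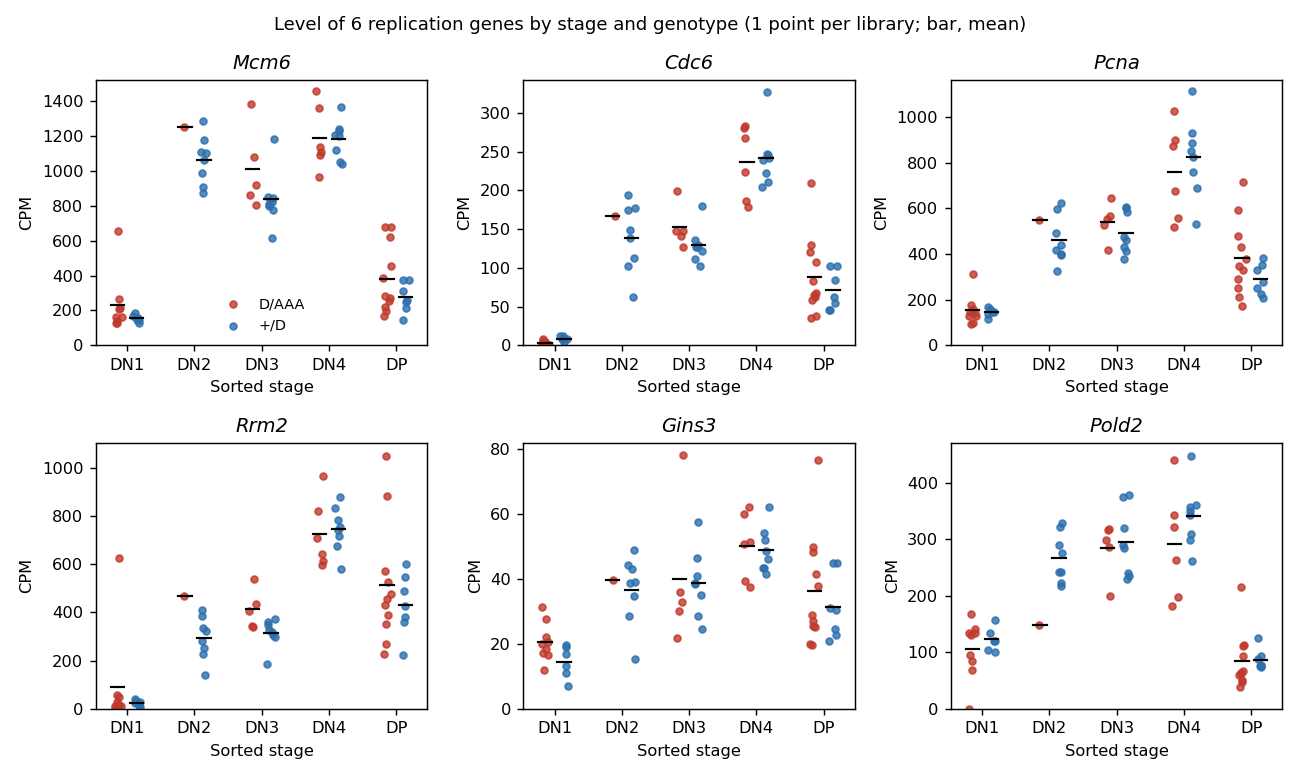
CPM of 6 replication genes at each sorted stage, D/AAA libraries in red left of +/D libraries in blue, with means as bars. Mcm6, Cdc6, Pcna and Pold2 fall at DP in both genotypes, and the +/D mean of Rrm2 at DP (432 CPM) lies above its DN2 mean (295 CPM).

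Levels were compared between genes per kb of the principal transcript. In +/D DN4 cells Pcna was highest with 542 CPM per kb, followed by Mcm6 with 405, Mcm7 with 364, Mcm5 with 359 and Rrm2 with 340 CPM per kb. Mcm2 and Mcm3 had 304 and 244 CPM per kb and Mcm4 had 141 CPM per kb, so the subunits of the ring, which are present in equal number in the complex, differed in RNA level. The catalytic subunits Pole and Pola1 had 14.9 and 15.02 CPM per kb, the lowest with Orc1 (14.97), while their partners Pole2 and Pola2 had 23.2 and 121 CPM per kb. Pold1 and Pold2 had 144 and 207 CPM per kb.

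Cdc20 genotype was compared at each stage within the earlier run. No replication gene was called at DN1, DN3, DN4 or DP, where 0%, 0%, 0.0081% and 0.00803% of all genes were called, and DESeq2 and limma voom called none of the 42 either. Unadjusted p was under 0.05 for 0, 3, 4 and 5 of the 42 genes, against 353 of 12822, 549 of 12912, 798 of 12348 and 1325 of 12451 genes tested at DN1, DN3, DN4 and DP. The summed level was 2672 ± 524 CPM in D/AAA and 2598 ± 176 in +/D cells at DN1, 10865 ± 1103 and 9821 ± 1161 at DN3. At DN4 it was 13737 ± 1489 CPM in D/AAA and 14666 ± 1185 in +/D cells. At DP it was 6026 ± 2338 CPM in D/AAA (SD, n = 11) and 5059 ± 1004 in +/D cells (n = 7). The lone D/AAA DN2 library had 11352 CPM, inside the +/D range of 8804 to 12848.

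The median change of the 42 genes between D/AAA and +/D cells was -0.05 at DN1, 0.15 at DN3, -0.08 at DN4 and 0.37 at DP on the log2 scale (over all genes, 0.05 at DP), with 16, 34, 11 and 41 genes positive. At DN1 Cdc6 had 0.0, 2.0 and 8.13 CPM in D/AAA libraries (lowest, median, highest) against 4.18, 8.45 and 12.4 in +/D libraries, and its change was -1.46 ± 0.73 (adjusted p = 1). The D/AAA DN1 library with 21199 counts had the highest sum of its group, 3848 CPM, and none of the 42 genes was called without it either. Mcm6 at DN3 had 805, 863, 915, 1075 and 1379 CPM in the 5 D/AAA libraries, against 616, 815 and 1178 (lowest, median, highest) in +/D libraries, and the ranges overlapped with a change of 0.29 ± 0.15 (adjusted p = 0.995). At DN3 Rrm1, the large subunit of ribonucleotide reductase, had the smallest p of the nucleotide supply genes, with a change of 0.52 ± 0.16 (adjusted p = 0.995), and 453, 403, 507, 529 and 731 CPM in D/AAA libraries. At DN4 Gins2 (ENSMUSG00000031821, chromosome 8, 120578633 to 120589304, minus strand), a GINS subunit, changed by -0.38 ± 0.16 (adjusted p = 0.763) and Mcm5 by -0.24 ± 0.10 (adjusted p = 0.763). Red cell markers summed to 1781 to 35939 CPM in D/AAA and 117 to 3039 in +/D DN4 libraries, and their part in the DN4 values was not tested.

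Orc1 had 5.88, 16.7 and 41.4 CPM in D/AAA DP cells (lowest, median, highest), against 0.197, 9.31 and 17.1 in +/D DP cells, a change of 1.23 ± 0.51 (adjusted p = 0.403). Pcna had 172, 346 and 718 CPM in D/AAA and 207, 279.6 and 384 in +/D cells, so the D/AAA range reached beyond the +/D range on both sides. The 42 genes summed to 10752 CPM in D/AAA DP library 1 and 10006 in library 10, against 3631 to 6618 CPM in the other 9. Library 1 carried a chromosome 15 score of 0.80, and library 10 one of 0.21 with a mitosis gene sum of 6140 CPM, the highest of the D/AAA DP group. The score is the median, over chromosome 15 genes, of the log2(CPM + 1) difference from the +/D mean, relative to all genes of the library with a mean of at least 10 CPM. Library 5 had a score of 0.54 and the lowest sum, 3631 CPM. None of the 42 genes lies on chromosome 15. The genotype by stage interaction over DN1, DN3, DN4 and DP called none of them, where 0.134% of all genes were called, and the smallest adjusted p among them were 0.251 for Cdc6 and 0.377 for Rfc3. None of the 6 related lists had a called gene in any of the 4 genotype comparisons.

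Early tumours sorted as DP were set against D/AAA DP cells. The 5 tumour libraries had summed levels of 5703, 8060, 12681, 10253 and 11782 CPM, against 3631 to 10752 in the 11 D/AAA DP libraries, and the groups overlapped. No gene of any kind was called (0% of all genes), 41 of the 42 replication genes had a positive change with a median of 0.60 (over all genes, -0.07), and 23 had an unadjusted p under 0.05, as had 2719 of the 12245 genes tested. DESeq2 called 6 of the 42 and 791 genes in all, and limma voom 22 of the 42 and 2127 in all. Mcm6 was 322, 801, 1182, 1021 and 1355 CPM in the early tumours, against 166, 283 and 678 (lowest, median, highest) in D/AAA DP cells, so 4 of the 5 tumours lay above every D/AAA DP library. The change of Mcm6 had an adjusted p of 0.0879. Cdc6 was 76.5, 113, 215, 211 and 223 CPM in the tumours against 35.1, 67.5 and 209 in D/AAA DP cells, a change of 0.92 ± 0.36 (adjusted p = 0.147). The single-strand binding subunit Rpa2 changed by 1.01 ± 0.28 (adjusted p = 0.0879), Rfc4 by 0.99 ± 0.33 (adjusted p = 0.115) and Rrm1 by 0.90 ± 0.31 (adjusted p = 0.117).

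The first early tumour stood apart from the other 4. Its chromosome 15 score was 0.07 and its DP markers summed to 11698 CPM, against scores of 0.59 to 0.97 and DP marker sums of 2605 to 4758 CPM in the others. Without that library 14 of the 42 genes were called and 1549 genes in all. Without the D/AAA DP libraries 1 and 5 there were 15 of the 42 and 1723 in all, and within the later title numbers 3 of the 42 and 736 in all. The part of chromosome 15, of DP markers and of the mitosis sum (2276 to 5520 CPM in the tumours, 1378 to 6140 in D/AAA DP cells) in these values was not tested.

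Set against D/AAA DN4 cells, the stage with the highest levels, the early DP tumours were lower in 6 genes, where 4.31% of all genes were called, 2.43% higher and 1.89% lower. These were the licensing factors Cdt1 (-1.08 ± 0.23) and Mcm2 (-0.96 ± 0.26), Gins2 (-0.98 ± 0.24), Pold1 (-1.28 ± 0.30), Pold2 and Chaf1a (-0.97 ± 0.25). Pold1, the catalytic subunit of polymerase delta, had 65.9, 165, 227, 123 and 266 CPM in the tumours against 321, 452 and 491 in D/AAA DN4 cells (lowest, median, highest), with no overlap and an adjusted p of 0.0262. Rrm2 had 614, 561, 763, 547 and 936 CPM in the tumours and 596, 674 and 965 in D/AAA DN4 cells, a change of -0.06 ± 0.22 (adjusted p = 0.924). The count of 6 fell to 0 without tumour library 2, to 2 without library 4 and to 0 within the later title numbers, where 234, 244 and 22 genes were called in all. Red cell markers summed to 0.52 to 85.5 CPM in the early DP tumours and 1781 to 35939 CPM in D/AAA DN4 cells, with 5 of 5 tested lower (Hba-a1 -10.50), and 4 of 7 DP markers were higher (Cd4 4.71). Their part in the replication values was not tested.

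The 7 early tumours with no sort named split widely. Their summed levels were 2204, 11001, 14861, 2658, 1789, 2212 and 2682 CPM, with libraries 2 and 3 at the level of DN3 and DN4 cells and the other 5 near DN1 cells. The high libraries had NKT and NK marker sums of 408 and 453 CPM, and library 3 had a red cell marker sum of 23292 CPM. Against D/AAA DP cells 1 gene was called, where 29.1% of all genes were called and 15.9% were higher. This was Pold2, with 68.8, 123 and 295 CPM in these early tumours (lowest, median, highest) against 39.2, 63.9 and 216 in D/AAA DP cells and a change of 0.84 ± 0.32 (adjusted p = 0.0494). Without libraries 2 and 3 none of the 42 genes was higher and 35 were lower, with a median of -1.43, against -0.14 with all 7. Pold2 was then not called, at 0.30. The share of all genes called in that refit is not given here, so the 35 is not read as particular to replication genes. The 5 libraries left were those with high NKT and NK and low DP marker sums, and the part of these cells was not tested.

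In non-tumoral thymus, D/AAA libraries were set against +/D libraries. No replication gene was called, nor any other gene (0%), and 35 of the 42 had a positive change with a median of 0.25. Unadjusted p was under 0.05 for 3 of the 42 and 907 of the 11044 genes tested, and DESeq2 and limma voom called none of the 42. The summed level was 1184, 1213, 2424, 1437, 2754, 1537, 3596, 2151 and 1115 CPM in the 9 D/AAA libraries, against 1401 to 1736 CPM in the 6 +/D libraries. Libraries 3, 5, 7 and 8 lay above the +/D range and libraries 1, 2 and 9 below it. The 4 high libraries had chromosome 15 scores of 0.46, 0.47, 0.51 and 0.33, against 0.01 to 0.18 in the other 5 and -0.05 to 0.06 in +/D thymus. Their DP marker sums were 743 to 2312 CPM, against 2418 to 3963 CPM in the other 5 and 3414 to 4206 CPM in +/D thymus. The part of either in these levels was not tested.

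Cdt1, the licensing factor that geminin inhibits, had the smallest p, with 37.7, 63.8 and 105 CPM in D/AAA thymus (lowest, median, highest) against 17.6, 31.6 and 44.7 in +/D thymus and a change of 0.94 ± 0.25 (adjusted p = 0.382). Pold1 changed by 0.65 ± 0.23 (adjusted p = 0.476), and Mcm6 had 29.2, 81 and 214 CPM in D/AAA against 58, 67.3 and 81 in +/D thymus. Rrm2 had a mean of 98 ± 31 CPM in D/AAA thymus and 99 ± 13.1 in +/D thymus (SD, n = 9 and 6), a change of -0.01 ± 0.19 (adjusted p = 0.993).

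**Figure D3:**
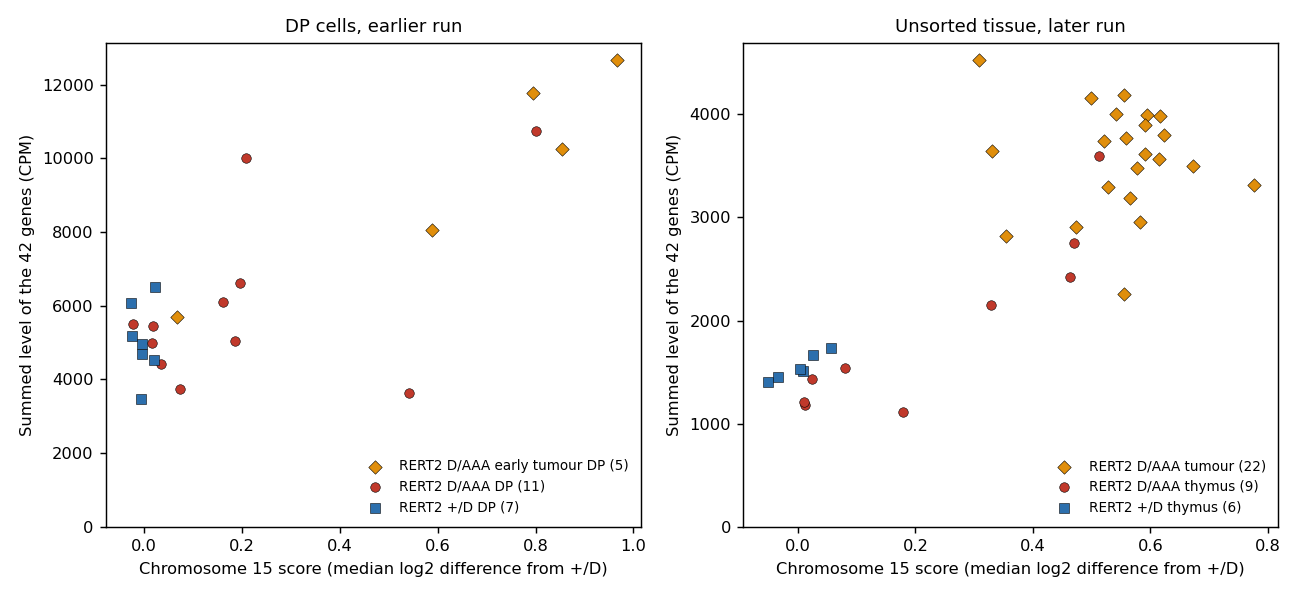
Summed CPM of the 42 genes against the chromosome 15 score of each library, for DP cells (left) and for tumours and thymus (right), early tumours and tumours as orange diamonds, D/AAA cells and thymus as red circles and +/D ones as blue squares. The first early DP tumour, at a score of 0.07, has 5703 CPM, and the other 4, at 0.59 to 0.97, have 8060 to 12681 CPM.

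RERT2 D/AAA tumours were set against thymus of either genotype. Against +/D thymus 37 of the 42 genes rose and 1 fell, where 41.5% of all genes were called, 22.4% higher and 19.1% lower. The members' median was 1.2, against 0.05 over all genes, and 15 genes had no overlap (not counted over all genes). The 42 genes summed to 3574 ± 527 CPM in the tumours (SD, n = 22) and 1549 ± 127 in +/D thymus (n = 6), and on totals without TMM scaling the means were 3679 and 1503 CPM. Mcm6 was 132, 217 and 382 CPM in the tumours (lowest, median, highest), against 78.3, 58, 68.4, 66.2, 81 and 64.5 in +/D thymus, with no overlap and a change of 1.67 ± 0.15 (adjusted p = 8.23e-10). All of Mcm2 to Mcm7 rose, by 1.19 (Mcm7) to 1.67 (Mcm6). Among licensing genes Orc1 alone was not called (0.60). All 8 polymerase and primase genes rose, most the polymerase epsilon subunit Pole2 at 2.12 ± 0.44 (adjusted p = 0.000266), with 7.55 ± 4.58 CPM in tumours and 1.67 ± 0.99 in +/D thymus. All 3 RPA subunits, both Okazaki fragment genes (Lig1 1.70, Fen1 0.97), both chromatin assembly genes (Chaf1a 1.47, Chaf1b 1.37) and all 4 nucleotide supply genes (0.84 to 1.29) rose. Of the clamp and its loader, Rfc5 was not called (0.42), and Rfc4 rose most at 1.72 ± 0.19 (adjusted p = 1.75e-08).

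The GINS subunits parted in the tumours. Gins1 rose by 1.72 ± 0.25 (adjusted p = 2.46e-06), Gins3 and Gins4 were not called (0.56 and 0.31), and Gins2 was the 1 replication gene that fell. It had 27.6, 40.7 and 74 CPM in the tumours (lowest, median, highest) against 70.2, 72, 45.8, 47.3, 76.7 and 84.9 in +/D thymus, ranges that overlap, with a change of -0.61 ± 0.18 (adjusted p = 0.00683). Gins2 overlaps Gm20388 and Gse1 on the opposite strand, and strandedness is not given in the sources used here, so reads of these genes may not be told apart. The same limit holds for Orc1, Orc2, Orc6, Mcm7, Cdc45, Pola1, Prim2, Pold1, Pole, Pole2, Rfc2, Rfc4, Rfc5, Fen1, Lig1, Tk1 and Chaf1a, which overlap other genes on the opposite strand. It also holds for Cdt1, which overlaps Gm20388 on its own strand, for Orc2, Mcm7, Pola1, Prim2, Pold1, Pole, Pole2, Rfc1, Rpa1, Rrm1 and Chaf1b, which likewise overlap genes on their own strand, and for Pcna and Tyms, which have pseudogene copies. Gins2 fell in LCK +/D MYCChr6 tumours as well, a comparison with the same +/D thymus libraries, with a change of -0.92 ± 0.26 (adjusted p = 0.0156), and had 26.9, 29.8, 33.8 and 54.7 CPM in those 4 tumours. Against D/AAA thymus it changed by -0.35 ± 0.16 (adjusted p = 0.0765).

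Against D/AAA thymus 39 of the 42 genes were higher in RERT2 D/AAA tumours and none lower, where 34.9% of all genes were called and 18.1% were higher. The median was 0.88, against 0.04 over all genes, and the 3 not called were Gins2, Gins4 (0.18) and Pole2 (0.86). The ranges of all 42 genes overlapped. The summed level was 2253 to 4525 CPM in the tumours. D/AAA thymus libraries 3, 5, 7 and 8, with chromosome 15 scores of 0.33 to 0.51, had 2151 to 3596 CPM, and their part in this comparison was not tested. Cdc6 moved most, with 17, 49.8 and 74 CPM in tumours (lowest, median, highest) against 3.64, 9.38 and 55.1 in D/AAA thymus and a change of 1.48 ± 0.33 (adjusted p = 0.000678). Cdc45 rose by 1.15 ± 0.26 (adjusted p = 0.000911), Tk1 by 1.17 ± 0.21, Chaf1a by 1.25 ± 0.30 and Prim1 by 0.99 ± 0.17. The 2 comparisons share the tumour libraries. DP markers summed to 306 to 1889 CPM in the tumours and B cell markers to 0.185 to 36.7 CPM, against DP sums of 743 to 3963 and 3414 to 4206 CPM in D/AAA and +/D thymus. All 7 DP markers were lower in the tumours than in +/D thymus, and the part of these markers in the rise was not tested.

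Related lists moved with the members in the tumours. Against +/D thymus 11 of 18 origin and fork factors (the helicase Recql4 2.36), 11 of 13 polymerase processing genes (Dna2 1.82), 8 of 9 S phase chromatin genes (Hells 2.08), 7 cyclin and E2F genes (E2f1 1.73) and 13 of 18 mitosis genes (Bub1b 1.85) were higher. E2f2 was lower at -1.58 and Samhd1 at -3.20, while Shmt1, a folate cycle enzyme for thymidylate, was higher at 2.24. Against D/AAA thymus 9 mitosis genes were higher (Bub1b 1.38) and none lower.

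**Figure D4:**
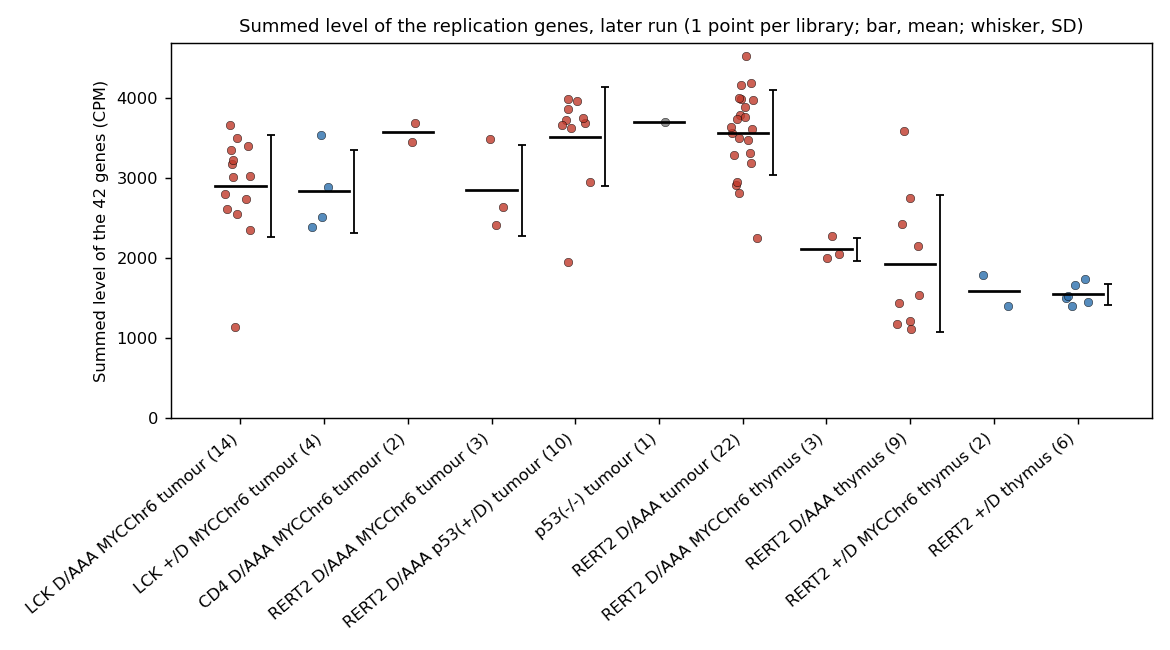
Summed CPM of the 42 replication genes in each library of the later run, with the mean as a bar and the SD as a whisker, D/AAA in red, +/D in blue and p53(-/-) in grey. RERT2 D/AAA tumours lie between 2253 and 4525 CPM, all above the highest +/D thymus library (1736 CPM), and D/AAA thymus runs from 1115 to 3596 CPM.

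The 22 RERT2 D/AAA tumours varied unequally from gene to gene. The coefficient of variation was lowest for Rrm1 (18.6%), Rfc2 (19%), Mcm7 (19%), Prim1 (19.6%) and Lig1 (19.9%). It was highest for Pole2 (60.6%) and Orc1 (51%), whose counting error alone would give 16.1% and 16%. Chaf1a (37.8%), Cdc6 (35.5%) and Pola1 (35.2%) came next, with counting errors of 7.03%, 6.54% and 5.65%. Mcm7 ranged 1.82 times between the lowest and highest tumour and Pole2 15.7 times. The tumours' chromosome 15 scores ran from 0.31 to 0.78.

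RERT2 D/AAA tumours with the p53(+/D) label were set against those without it. A single replication gene was called, Rfc3 (ENSMUSG00000033970, chromosome 5, 151642756 to 151651242, minus strand), where 1.29% of all genes were called and 0.742% were higher. Rfc3 had 32.4, 59.1 and 86.8 CPM in p53(+/D) tumours (lowest, median, highest) against 25.5, 39.5 and 54.8 in the others, overlapping ranges with a change of 0.58 ± 0.13 (adjusted p = 0.0154). When all libraries of the run shared 1 fit it was not called. The 740 tested genes of chromosome 5, which holds 7 of the 42 genes, had a median change of 0.18 in this comparison. The chromosome 5 score was -0.16 in the lowest p53(+/D) tumour and 0.05 to 0.37 in the rest, against -0.15 to 0.26 in RERT2 D/AAA tumours. The other 6 were Tyms (0.39 ± 0.14, adjusted p = 0.178), Rfc5 (0.35), Rfc1 (0.34), Rfc2 (0.24), Mcm7 (-0.01) and Pole (-0.07), and the part of chromosome 5 in the Rfc3 value was not tested. Rrm1, on another chromosome, changed by -0.32 ± 0.11 (adjusted p = 0.132) and was lower than the tumour median in 10 of 10 p53(+/D) libraries. The summed level was 3522 ± 623 CPM in p53(+/D) tumours and 3574 ± 527 in the others, and without TMM scaling the means were 3923 and 3679 CPM, so their order turned with the scaling. The members' median was -0.02, with 7 of the 42 and 1651 of the 11453 genes tested at an unadjusted p under 0.05, and none of the related lists had a called gene.

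In the 3 RERT2 D/AAA MYCChr6 tumours, against RERT2 D/AAA tumours, 3 genes were lower and none higher, where 9.23% of all genes were called and 3.57% were lower. Cdc45 had 28.4, 25.9 and 20.1 CPM in MYCChr6 tumours against 24.6, 47.5 and 83.9 (lowest, median, highest) in the others, a change of -1.03 ± 0.26 (adjusted p = 0.00963). Rrm2 had 73.5, 113 and 93.7 CPM against 67.2, 195 and 291, a change of -0.95 ± 0.27 (adjusted p = 0.0223), and Rrm1 was the other gene called (-0.63 ± 0.19). Without MYCChr6 tumour 3 none was called, without tumour 1 there were 2, voom called none, 1 fit of the whole run called 1 and DESeq2 6. In the same comparison Ccne1 was higher at 1.42 and Ccne2 lower at -1.51, and Samhd1 was higher at 4.37. B cell markers summed to 4.17 to 306 CPM in the MYCChr6 tumours and 0.185 to 36.7 in RERT2 D/AAA tumours, with 5 of 5 tested higher (Ms4a1 5.11). DP markers summed to 123 to 826 and 306 to 1889 CPM, with 4 of 7 lower (Rag1 -7.58), and 3 of 5 DN2 and DN3 markers were lower. Of the NKT and NK markers 2 of 4 tested were higher (Ccl5 5.06), and of the myeloid and dendritic ones 1 of 7 (Lyz2 1.63). The part of these cells in the replication values was not tested.

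In the 14 LCK D/AAA MYCChr6 tumours, against RERT2 D/AAA tumours, 15 of the 42 genes (35.7%) were lower and none higher, where 35.3% of all genes were called and 16.7% were lower. The share called in either direction was thus near that of all genes. These groups differ in driver and in MYCChr6, which this comparison does not separate. All 4 nucleotide supply genes were lower. Tyms had 35.8, 49.2 and 76.1 CPM in LCK tumours (lowest, median, highest) against 54.2, 98.1 and 135 in RERT2 tumours, a change of -0.89 ± 0.13 (adjusted p = 9.11e-07), and all 14 LCK tumours lay below the RERT2 median. Rrm2 changed by -0.62 ± 0.15 (adjusted p = 0.00171), with 65.9, 110.3 and 202 CPM in LCK tumours. Chaf1b moved most at -0.92 ± 0.19 (adjusted p = 0.000285), followed by Gins3 (-0.87 ± 0.19), Cdc45 (-0.74 ± 0.13) and Mcm7 (-0.65 ± 0.14). Of the ring subunits, Mcm4, Mcm5 and Mcm7 were lower and Mcm2 (0.13 ± 0.13), Mcm3 (-0.39 ± 0.17) and Mcm6 (-0.32 ± 0.13) were not called, and the difference between subunits was not tested. Mcm2 lies on chromosome 6, whose 554 tested genes had a median change of 0.50 here, and the part of chromosome 6 in its value was not tested. Pcna (0.05 ± 0.15), the RPA subunits and Fen1 and Lig1 were not called.

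The LCK tumours also held more markers of other cells. B cell markers summed to 2.29 to 1302 CPM in LCK D/AAA MYCChr6 tumours and 0.185 to 36.7 in RERT2 D/AAA tumours, and 4 of 4 tested were higher. Myeloid and dendritic markers summed to 138 to 2185 and 25.8 to 184 CPM, with 5 of 7 tested higher, and 4 of 5 mature T cell markers were higher. Their part in the lower replication values was not tested. Library 9 had the highest B cell sum and the lowest replication sum (1136 CPM), and without it 14 genes were lower and Rpa1 was higher at 0.40. Of the related lists, 10 of 18 mitosis genes (Bub1b -0.90), 6 cyclin and E2F genes (E2f8 -1.61) and 4 chromatin genes (Esco2 -1.19) were lower. Ccne1 (1.64), Ccnb1 (0.72), Pold4 (0.93) and Samhd1 (4.44) were higher.

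Cdc20 genotype within LCK MYCChr6 tumours made no call among the members (0% of all genes), with 0 of the 42 and 653 of the 12791 genes tested at an unadjusted p under 0.05, and none of the 42 by DESeq2 or voom. The 42 genes summed to 2901 ± 637 CPM in D/AAA (SD, n = 14) and 2836 ± 517 in +/D tumours (n = 4), and the median change was 0.07. Rrm2 had 65.9, 110.3 and 202 CPM in D/AAA tumours (lowest, median, highest) against 69.1, 80.7, 77.1 and 100.02 in +/D tumours, a change of 0.52 ± 0.26 (adjusted p = 0.966).

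LCK +/D MYCChr6 tumours carry no AAA allele, and against RERT2 +/D thymus 17 of the 42 genes were higher and 1, Gins2, lower, where 32.3% of all genes were called and 16.4% were higher. These groups differ in driver and in MYCChr6 as well as in tumour against thymus, which this comparison does not separate. The median was 0.67. Mcm2 rose most, with 209, 236, 254 and 493.03 CPM in the 4 tumours against 100.6, 92.3, 90.4, 79.5, 77.3 and 100.5 in the 6 +/D thymus libraries, no overlap and a change of 1.67 ± 0.23 (adjusted p = 0.000137). Mcm2 lies on chromosome 6, to which the label MYCChr6 refers and whose 620 tested genes had a median change of 0.58 in this comparison, the highest of any chromosome (the next was 0.17, on chromosome 15), and the part of chromosome 6 in the Mcm2 value was not tested. Rpa1 rose by 1.52 ± 0.24 (adjusted p = 0.000391), Lig1 by 1.49 ± 0.19, Prim2 by 1.36 ± 0.32, Rfc2 by 1.11 ± 0.20 and Pcna by 1.07 ± 0.20. Mcm7 missed the threshold at 0.43 ± 0.16 (adjusted p = 0.0587), as did Cdc6 at 0.42 ± 0.37 (adjusted p = 0.415). Of the nucleotide supply genes Rrm1 was called at 0.53 ± 0.18, and Rrm2 had 69.1, 80.7, 77.1 and 100.02 CPM in the tumours, a change of -0.33 ± 0.17 (adjusted p = 0.158). In RERT2 D/AAA tumours the same +/D thymus libraries were used as the other side, and Rrm2 there changed by 0.84, but the difference of these changes was not tested. In the LCK +/D tumours DP markers summed to 26.5 to 1538 CPM and myeloid and dendritic markers to 101.3 to 626 CPM, against 3414 to 4206 and 18.8 to 63.1 CPM in +/D thymus. The B cell marker Pax5 was higher in the tumours at 3.09, the DP marker Rag2 lower at -7.88 and the DN2 and DN3 marker Notch3 lower at -8.87. The part of these cells in the replication values was not tested. Ccne1 was higher at 2.68, and 4 mitosis genes were higher (Ccnb1 1.90).

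RERT2 D/AAA MYCChr6 tumours against thymus of the same genotype made no call among the members, where 2.17% of all genes were called. An unadjusted p under 0.05 was found for 4 of the 42 and for 2169 of the 11105 genes tested. DESeq2 called 3 and voom none. The summed level was 3496, 2645 and 2415 CPM in the 3 tumours against 2059, 2279 and 2000.3 CPM in the 3 thymus libraries, which did not overlap. The ranges of 11 of the 42 genes did not overlap either. This was not counted over all genes, so with 3 libraries on each side the 11 and the gap in the sums are not read as results. Lig1 changed by 1.21 ± 0.29 (adjusted p = 0.0803), with 139, 98 and 96.5 CPM in the tumours against 44.5, 36.3 and 57.8 in thymus. Mcm6 was 212, 148 and 207 CPM in the tumours and 101.5, 93.1 and 99.2 in thymus, a change of 0.89 ± 0.24 (adjusted p = 0.0996). Of the marker genes, Rag1 was lower in the tumours at -9.52 and Notch3 at -9.48. The chromosome 15 score was 0.58 in thymus library 1, against 0.08 in library 2 and -0.04 in library 3. Globin genes took 5.57% of counts in thymus library 3. The part of these differences in the replication values was not tested.

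**Figure D5:**
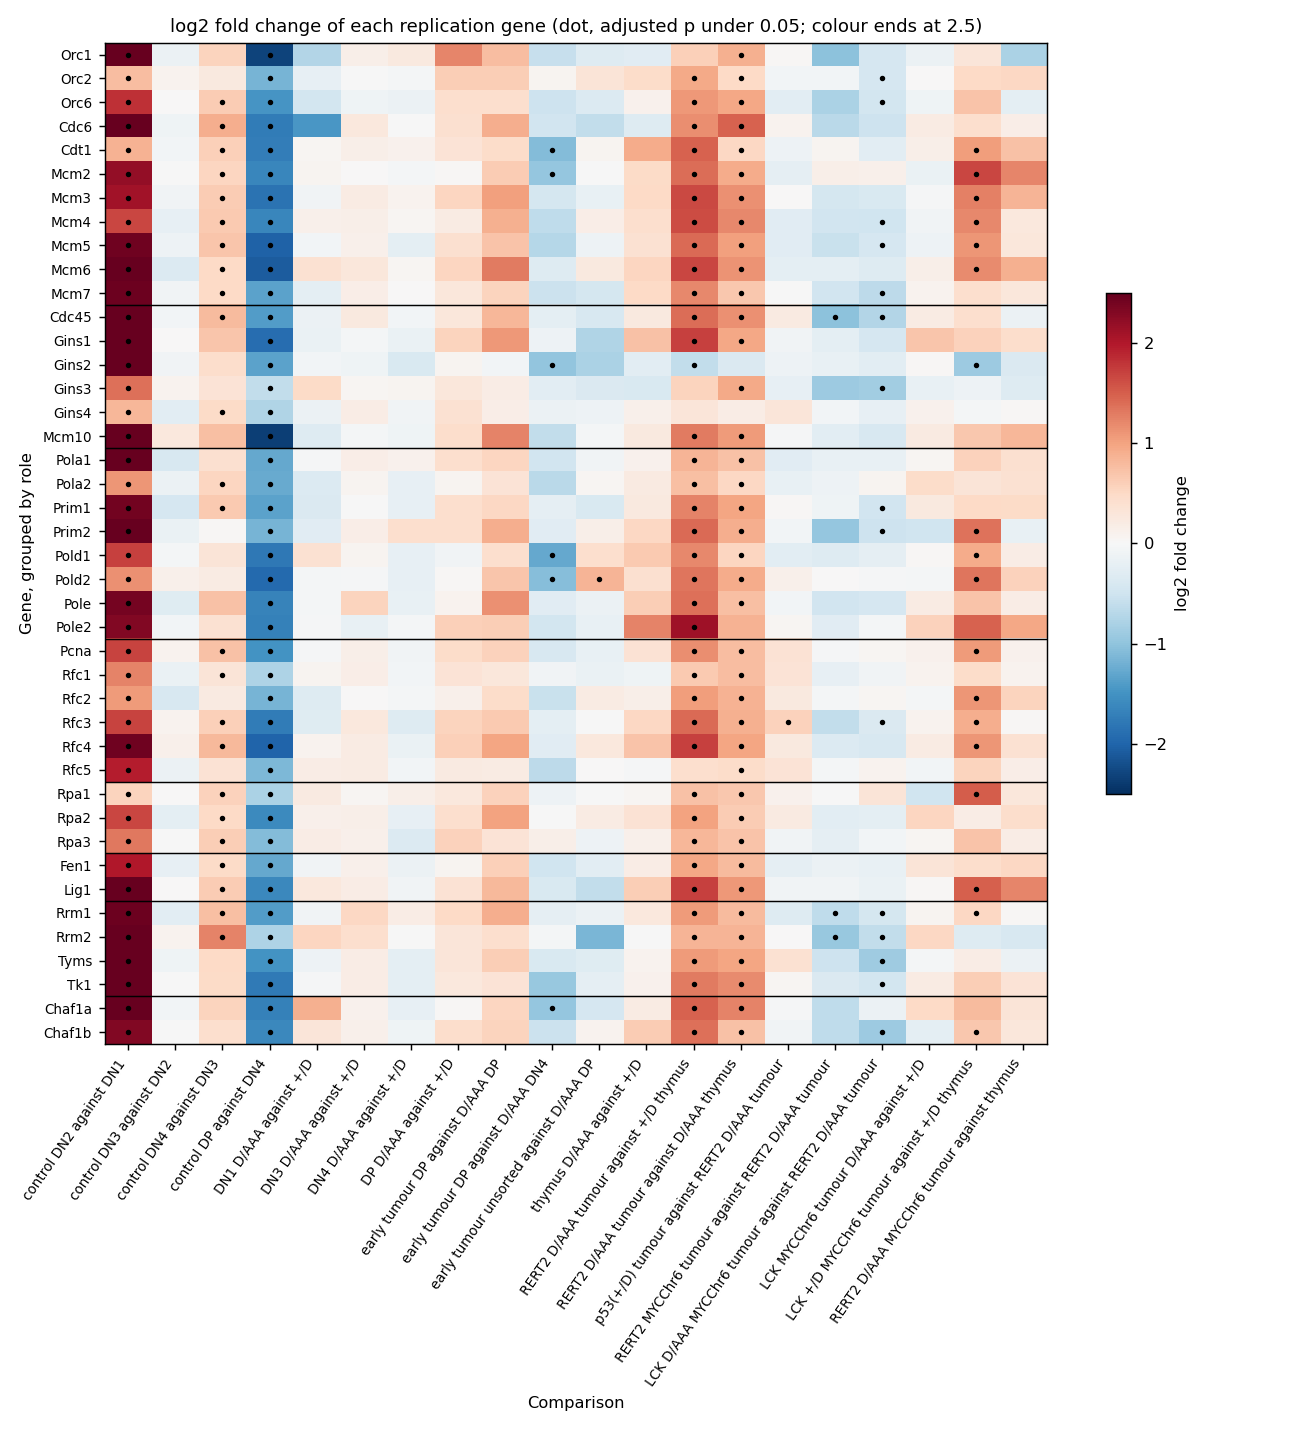
Log2 fold change of each of the 42 genes (rows, grouped by role) in each of the 20 comparisons of 2 groups (columns, the first-named group over the second), with a dot where the adjusted p is under 0.05 and colour capped at 2.5. The DN2 against DN1 and DP against DN4 columns are marked for all 42 genes, and the columns by Cdc20 genotype have no mark.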

How the data were processed

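RNA was extracted, per the labels' protocols, with RNeasy Plus Mini columns and sequenced on a HiSeq2000. The values the authors deposited are RSEM expected counts per gene (all whole numbers), in 1 table per run. Per the submitters' processing notes, reads were aligned with STAR 2.5.3a to GRCm38 (mm10) and counted with RSEM 1.3.0. Neither the annotation release nor strandedness is given in the sources used here. Gene names and positions came from GENCODE M21, which named 50376 of the 50686 genes, and promoters from RefSeq.

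Each of the 20 comparisons was fitted within 1 run on all genes left by filterByExpr, with TMM factors and edgeR 4.0.16's robust quasi-likelihood test in R 4.3.3. The counts are whole, so rounding changed nothing. Genotype by stage was tested as an interaction term. A gene was called at a Benjamini-Hochberg adjusted p under 0.05 over all genes tested. The scripts were first tested on simulated data. CPM per kb divides the mean CPM by the length of the principal transcript. Alternatives were no low-count filter, relative log expression factors, DESeq2 1.42.0, limma 3.58.1 voom with quality weights, 1 fit of all libraries of a run, the total without CT010467.1, a split at title number 182156, leaving out each library in groups of 3 to 5, leaving out the shallow D/AAA DN1 library, and leaving out D/AAA DP libraries 1 and 5, picked for their chromosome 15 scores in an earlier analysis of these data. Further alternatives, chosen after seeing the data, left out libraries 2 and 3 of the early tumours with no sort named, LCK D/AAA tumour 9, or +/D DN4 libraries 1 and 7.

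The 42 genes, the role lists and the related lists were chosen with earlier results of these data known. Named genes were Mcm2 to Mcm7, Cdc6, Pcna and Rrm2, the called gene of each role with the largest change (with none called, the smallest p), any gene called against the majority, and in each related list the called gene with the largest change in each direction. Further genes were named after their values were seen. Counting error only is covered by the counting errors given.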

Additional observations from a re-analysis of the deposited data

Results flagged for a closer look

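Dixon's ratio was applied to 70 sets of values, each of 1 measure in a group of 4 to 10 libraries, where chance marks about 1 in 20. The sets share libraries, so their marks are not independent. The marked values are listed without an explanation. Cdc6 was 326.6 CPM in +/D DN4 library 3, against 204.2 to 247.1 CPM in the other DN4 libraries. In +/D DN3 library 2 Mcm6 was 1178 CPM and Cdc6 180.5 CPM, against 615.6 to 849.8 and 103.1 to 136.6 CPM in the others. Rrm2 was 186.2 CPM in +/D DN3 library 4, against 298.3 to 370.7 CPM. Cdc6 was 200 CPM in D/AAA DN3 library 5, against 126.7 to 147.6 CPM.

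D/AAA DN1 library 8, the one with 21199 counts, carried 4 of the marked values. The summed level was 3848 CPM there against 2201 to 2950 CPM in the other 8 libraries, Mcm6 was 657.0 against 125.6 to 264.9 CPM, Pcna 312.8 against 95.29 to 178.1 CPM and Rrm2 625.7 against 2.253 to 55.31 CPM. Its DP markers summed to 1908 CPM.

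Cdc6 was 55.15 CPM in D/AAA thymus library 7, against 3.644 to 23.43 CPM in the other 8, and that library had the highest chromosome 15 score of the group, 0.51. In p53(+/D) tumours the summed level was 1951 CPM in library 9, against 2958 to 3998 CPM, and Pcna was 364.9 CPM in library 7, against 114.5 to 243.2 CPM.

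Some libraries of groups that enter no comparison also had levels beyond +/D thymus (1401 to 1736 CPM summed). These were the CD4 D/AAA MYCChr6 tumours with 3698 and 3461 CPM, the p53(-/-) tumour with 3706 CPM and library 1 of +/D MYCChr6 thymus with 1793 CPM. The mean of the 2 +/D MYCChr6 thymus libraries, 1597 CPM, lay inside the +/D thymus range.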

How the results depend on the processing

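No paired analysis was possible because the labels give no replicate numbers that groups share and do not tie title numbers to a mouse. Of the counts of called replication genes, 147 stayed within 1.5 times under the alternatives, 23 moved further and 2 reversed direction. The cause of these moves was not tested. A count of 0 that stayed at 0 is among the 147, as in the Cdc20 genotype comparisons, so the 147 does not measure how stable the called genes were. The counts in DN2 against DN1 (41 to 42), DP against DN4 (41 to 42), tumours against +/D thymus (38 to 39) and against D/AAA thymus (38 to 40), and the genotype comparisons (0) held in all alternatives run. DN3 against DN2 had 1 call by DESeq2 and 2 by voom, against 0. DN4 against DN3 had 2 in 1 fit of the run, against 24. Early DP tumours against D/AAA DP had 6 by DESeq2, 22 by voom, 4 in 1 fit of the run, 3 within the later title numbers, 15 without DP libraries 1 and 5, and 0 to 14 with a library left out, against 0. Against D/AAA DN4 they had 12 by voom, 0 within the later title numbers and 0 to 9 with a library left out, against 6. Early tumours with no sort named had 0 with relative log expression factors, without the filter and by DESeq2, against 1. For them voom called 29 (28 lower) and leaving out libraries 2 and 3 gave 35 lower. The shares of all genes called in these fits are not given here. p53(+/D) tumours had 0 in 1 fit of the run, against 1. RERT2 MYCChr6 tumours had 6 by DESeq2, 0 by voom, 1 in 1 fit of the run and 0 to 4 with a library left out, against 3. Against their thymus they had 2 without the filter and 3 by DESeq2, against 0. Depth limits Pole2 and Orc1 most, with counting errors of 16.1% and 16% in the tumours.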
